A study of Mus musculus with 6 samples.

Results

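Zinc transporters and metallothioneins move and bind cellular zinc, and 36 protein-coding genes of these families were described in 22Rv1 cells with acquired resistance to BL-B01D1. The genes were chosen by name from 58735 genes in the deposited table. They comprised 10 SLC30 genes, 14 SLC39 genes, 11 metallothionein genes and MTF1. 22Rv1 cells are an established line of human prostate cancer, and BL-B01D1 is an antibody-drug conjugate against EGFR and HER3 with a topoisomerase I inhibitor as its payload. RNA-Seq covered parental 22Rv1 cells, which received vehicle (3 libraries), and the resistant subline 22Rv1 BL-B01D1_R (3 libraries), which was grown in gradually rising concentrations of BL-B01D1. Whether the drug was present when RNA was taken from the subline is not stated in the sources used here. Effects of current exposure and of acquired resistance therefore cannot be told apart. The subline came from 1 selection of 1 line, so the spread between its libraries did not cover a repeated selection. Nothing in the labels says that the libraries of a group came from separate cultures, so p-values measure only the spread between these libraries, which may be technical. Although the organism is labeled as mouse, the cell line and the gene identifiers are human.

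SLC30 proteins (ZnT) carry zinc out of the cytosol, either across the plasma membrane or into organelles, and SLC39 proteins (ZIP) carry it into the cytosol. Metallothioneins are small cysteine-rich proteins that bind zinc and copper and also cadmium. MTF1 is the zinc-sensing transcription factor that switches on metallothionein genes and SLC30A1. Luminal cells of the normal prostate store unusually high amounts of zinc, and prostate cancer cells typically lose this property.

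Counts on genes totaled 13821639 to 17251491 per library, and 3 counts, taken as the floor of detection, corresponded to 0.174 to 0.216 CPM (counts scaled to a common library size after TMM adjustment). Intervals and floors cover counting error and the spread between these libraries only. Of 10 luminal prostate markers, all 10 exceeded 3 counts in at least 1 library, and their summed level was 3448 to 3550 CPM in parental and 3640 to 3728 CPM in resistant libraries. The summed level of 6 immune markers was 0.360 to 0.715 CPM in parental and 0.476 to 0.555 CPM in resistant libraries. Fibroblast markers summed to 112 to 115 CPM in parental and 39.6 to 44.7 CPM in resistant libraries, most of it from LUM (lumican) at 96.0 ± 2.96 and 28.8 ± 2.40 CPM (SD, n = 3 each). LUM was called lower in the resistant subline. COL1A1, a collagen chain, passed the FDR threshold and was lower as well, at 14.2 ± 1.09 CPM in parental and 11.7 ± 0.56 CPM in resistant cells (SD, n = 3 each). DCN and COL3A1 were detected at under 2 CPM on average and did not pass, COL1A2 and PDGFRB were at or near 0, and the part of these genes in the results below was not tested. The summed level of 5 endothelial markers was 1.16 to 1.58 CPM in parental and 0.422 to 1.36 CPM in resistant libraries. RNA was bulk, so fewer expressing cells and less RNA per cell cannot be told apart.

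Of the 36 genes, 33 had a count in at least 1 library and 26 had enough counts to be tested. A gene was called where edgeR's quasi-likelihood test, adjusted over all 17142 genes tested, gave an FDR under 0.05 and the log2 fold change exceeded 1 in size. In the resistant subline 1 gene of the group, SLC30A3, was called higher (background over all tested genes, 2.53%), and 0 were called lower (background, 2.84%). At an unadjusted p under 0.05 the number past the same fold change and lower was also 0, and limma-voom, limma-trend and DESeq2 called 0 lower as well. The FDR threshold alone was passed by 12 of the 26 genes, 5 of them higher and 7 lower, beside a background of 35.5% in either direction, 17.1% higher and 18.4% lower. The 3 resistant libraries lay entirely above the parental ones for 5 genes (background, 22.1%) and entirely under them for 9 (background, 22.8%), and the groups overlapped for 12. The median log2 fold change was −0.075 over the 26 genes and 0.0038 over all genes tested. The tested genes had passed the filter on low counts, and SLC30A3 passed it through the resistant libraries.

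The families are described by their counts and medians, and the differences between them were not tested. The background over all tested genes at the FDR threshold was 35.5% in either direction, 17.1% higher and 18.4% lower. All 5 tested metallothioneins had a log2 fold change under 0, with a median of −0.49, and 3 of them passed the FDR threshold. Among SLC39 genes 3 rose, 2 fell and 7 did not pass, with a median of −0.040. Among SLC30 genes 2 rose, 2 fell and 4 did not pass, with a median of 0.022, which stays the same when SLC30A3 is placed at its lower bound. The plot of log2 fold changes by family shows this spread.

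**Figure D1:**
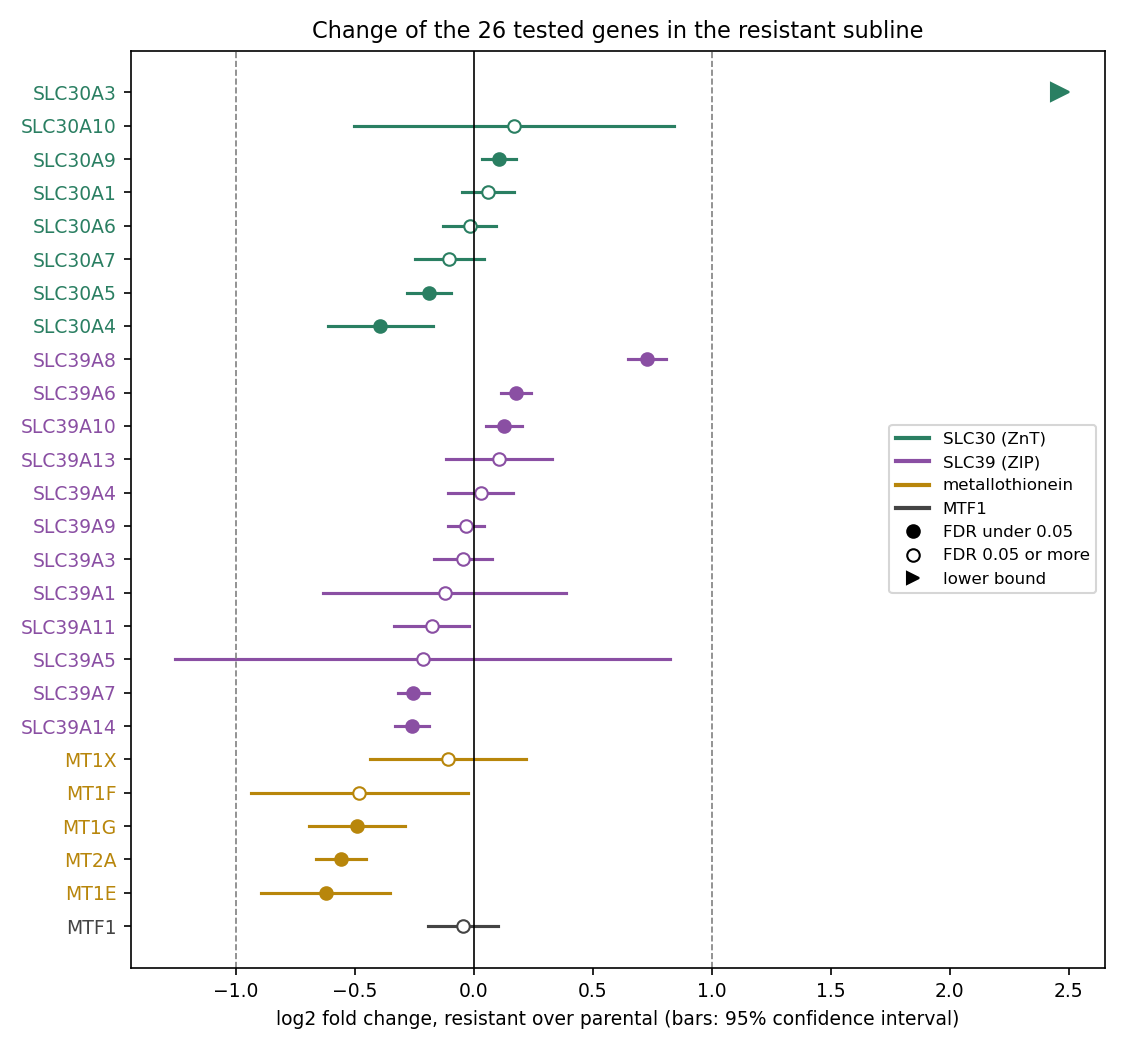
Log2 fold change (x axis, resistant over parental) of the 26 tested genes (y axis), grouped by family, with 95% confidence intervals as bars. Filled circles passed an FDR of 0.05, open circles did not, and dashed lines mark −1 and 1. The triangle is the lower bound of SLC30A3, which rests on the resistant mean and has no interval. The 5 metallothioneins all lie under 0, from −0.62 to −0.11.

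Levels between genes were compared as FPKM, per length the authors list, and the order given here holds for those lengths only. SLC39A6 stood highest with a mean of 96.8 ± 4.17 FPKM (SD, n = 3) in parental and 109.5 ± 2.93 FPKM (SD, n = 3) in resistant cells, at percentile 98.2 of all tested genes. SLC39A7 followed at 93.0 ± 1.25 and 78.0 ± 2.80 FPKM (SD, n = 3 each). In parental libraries the FPKM ranges of these 2 genes overlapped, whereas in resistant libraries they did not. MT2A came next at 55.9 ± 1.02 FPKM in parental and 38.0 ± 1.57 FPKM in resistant cells (SD, n = 3 each).

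SLC39A14 followed at 29.1 ± 0.84 FPKM in parental cells, and then MT1G at 22.5 ± 1.59 and SLC30A9 at 20.01 ± 0.39 FPKM (SD, n = 3 each). SLC39A9, SLC39A10 and SLC30A5 lay between 15.99 and 18.9 FPKM in every parental library, and the ranges of neighbors in that order overlapped. SLC39A8 stood under them at 14.04 ± 0.496 FPKM in parental cells but rose to 23.3 ± 0.530 FPKM in resistant cells (SD, n = 3 each), where its range overlapped that of SLC39A14. SLC30A6 and SLC30A1, at 10.3 ± 0.25 and 9.81 ± 0.40 FPKM in parental cells (SD, n = 3 each), were separated by less than 1 FPKM and their ranges also overlapped. SLC30A3, SLC30A10, SLC39A5 and SLC39A1 stayed under 1 FPKM in all 6 libraries.

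FPKM rests on the gene length the authors list. For MT2A and MT1X that length, 1299 and 1773 bases, equals the whole gene from start to end, introns included, so their FPKM are per genomic base and not per base of mRNA. Whether SLC39A6 or MT2A stands higher per base of mRNA, and the place of MT1X in the order, are therefore uncertain. The length does not enter a fold change.

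**Figure D2:**
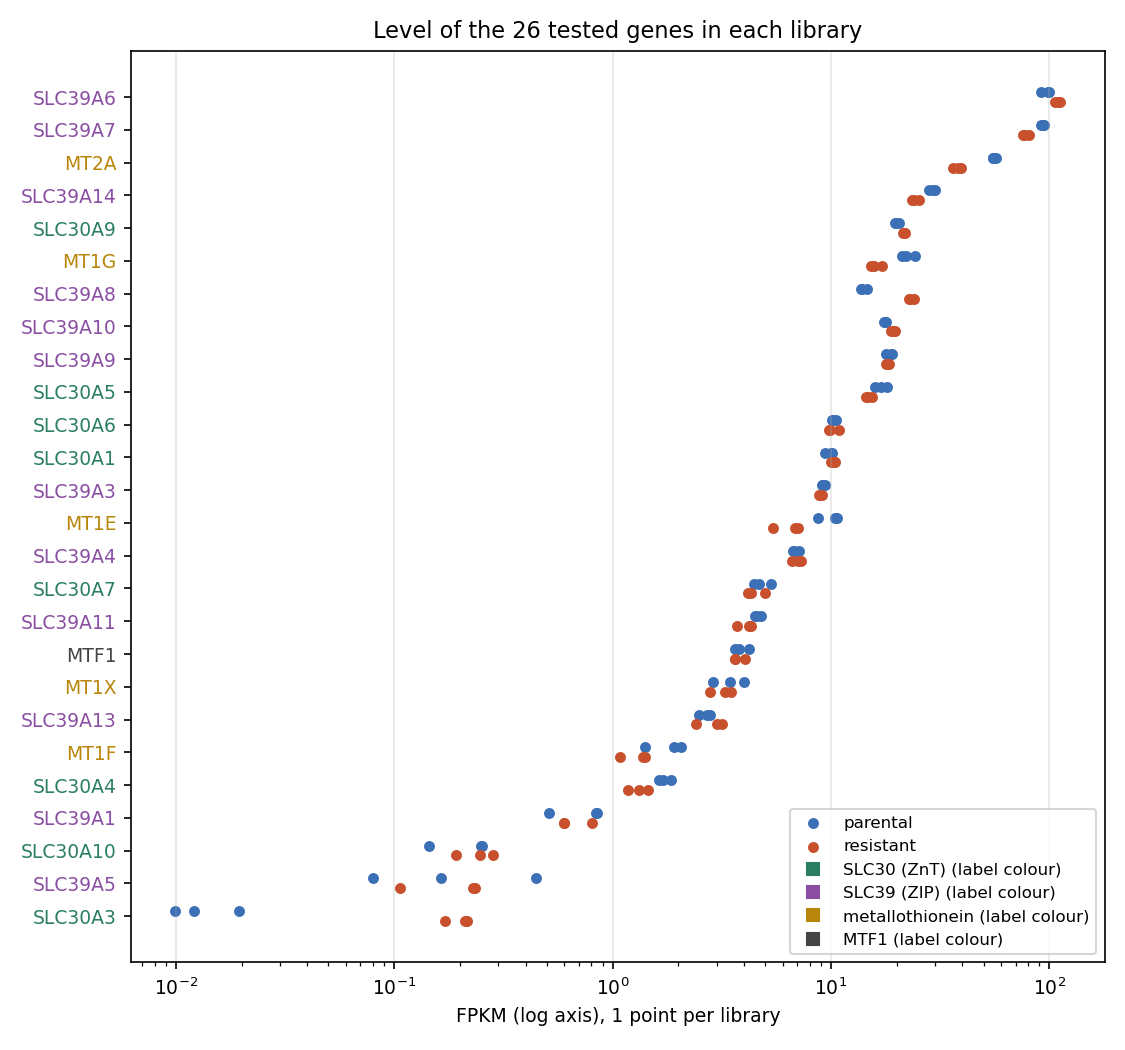
FPKM on a log axis (x axis) of the 26 tested genes (y axis, ordered by their mean over all libraries), with 1 point per library, parental in blue and resistant in red. On the lengths the authors list, SLC39A6 stands highest at 92.1 to 112 FPKM. SLC39A8 moves from 13.7 to 14.6 FPKM in parental libraries to 22.9 to 23.9 FPKM in resistant libraries.

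Among importers of the plasma membrane, SLC39A8 had the largest rise. It encodes ZIP8, which carries zinc and manganese and also takes up cadmium. SLC39A8 (ENSG00000138821) lies on chromosome 4 (hg38, 102251041 to 102431258, reverse strand). It measured 94.7, 89.4 and 88.8 CPM in parental libraries 1, 2 and 3 and 148, 150 and 155 CPM in resistant libraries 1, 2 and 3. The groups did not overlap, and the lowest resistant library was well above the highest parental one. The log2 fold change was 0.73 (SE 0.039, edgeR FDR 4.60e-19), or 1.66-fold, and when any 1 library was omitted it lay between 0.71 and 0.76. It was under the fold-change threshold and was therefore not called.

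SLC39A14 encodes ZIP14, the closest relative of ZIP8, which carries zinc, manganese and iron not bound to transferrin. It moved the other way, from 196, 207 and 203 CPM in parental libraries to 167, 163 and 175 CPM in resistant libraries. The groups did not overlap, and the log2 fold change was −0.26 (SE 0.035, edgeR FDR 7.09e-08).

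The ratio of SLC39A8 to SLC39A14 counts, which needs no scaling between libraries, was 0.484, 0.431 and 0.437 in parental libraries and 0.887, 0.916 and 0.883 in resistant libraries. The mean ratio thus went from 0.451 ± 0.029 to 0.895 ± 0.018 (SD, n = 3 each; two-sided exact permutation test, p = 0.1, which is the lowest value 3 against 3 libraries can give). This was 1 of 7 such ratios chosen after the values of the genes were seen, and its Benjamini-Hochberg adjusted p over the 7 was 0.175 in the exact permutation test.

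SLC39A6 (LIV-1) and SLC39A10 are closely related importers that form a complex at the plasma membrane, and LIV-1 is itself a target of antibody drugs. SLC39A6 (ENSG00000141424; chromosome 18 of hg38, 36108532 to 36129385, reverse strand) measured 368, 339 and 363 CPM in parental and 403, 414 and 393 CPM in resistant libraries. SLC39A10 (ENSG00000196950) measured 122, 120 and 124 CPM in parental and 136, 134 and 131 CPM in resistant libraries. Both rose by small amounts with groups that did not overlap. The log2 fold changes were 0.18 (SE 0.031, FDR 8.16e-06) for SLC39A6 and 0.13 (SE 0.037, FDR 0.0066) for SLC39A10 in edgeR's test.

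The other importers of the cell surface did not pass. SLC39A4, the main importer of dietary zinc in the intestine, had a log2 fold change of 0.029 with a 95% confidence interval of −0.11 to 0.16. SLC39A3 had a log2 fold change of −0.047 (interval −0.17 to 0.076). A second gene model on its strand, AC006538.2, covers 7845 of its 7949 bases and has 0 counts in every library. How many reads of SLC39A3 went unassigned because of it was not tested. SLC39A5 had 4, 8 and 18 counts in parental and 11, 10 and 5 counts in resistant libraries, a depth at which a change could not be detected (interval −1.25 to 0.83). SLC39A2 had at most 1 count in any library and SLC39A12 had 0 counts in all 6, so neither was tested.

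SLC39A1 (ENSG00000143570) encodes ZIP1, the importer most often linked with zinc uptake by prostate cells. Only 49, 29 and 40 counts in parental and 45, 30 and 33 counts in resistant libraries were assigned to it, and the groups overlapped. Its log2 fold change was −0.12 (interval −0.63 to 0.39, edgeR FDR 0.754). The table holds a second protein-coding gene model on the same strand, AL358472.7, which covers 9034 of the 9086 bases of SLC39A1 and has 0 counts in every library. CREB3L4, on the opposite strand, overlaps SLC39A1 by 651 bases and has 1314 to 1891 counts per library. How many reads of SLC39A1 went unassigned because of these overlaps was not tested, so its level here is uncertain.

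Among ZIP proteins of inner membranes, SLC39A7 fell. It encodes ZIP7, which releases zinc from the endoplasmic reticulum into the cytosol. SLC39A7 (ENSG00000112473; chromosome 6, 33200445 to 33204439, forward strand) measured 261, 265 and 268 CPM in parental and 220, 215 and 231 CPM in resistant libraries. No resistant library reached the lowest parental one, and the log2 fold change was −0.25 (SE 0.032, edgeR FDR 1.74e-08). It overlaps RXRB on the opposite strand by 244 bases, and RXRB had a log2 fold change of −0.17.

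The ratio of SLC39A6 to SLC39A7 counts was 1.41, 1.28 and 1.35 in parental and 1.83, 1.92 and 1.70 in resistant libraries. These 2 genes had the highest counts of the group. Their order on the count scale widened from a mean ratio of 1.35 ± 0.065 to 1.82 ± 0.11 (SD, n = 3 each; two-sided exact permutation test, p = 0.1, adjusted p = 0.175).

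SLC39A9, a Golgi transporter also described as a membrane androgen receptor, had a log2 fold change of −0.033 (interval −0.11 to 0.043). It overlaps the abundant gene ERH by 613 bases on the opposite strand. SLC39A11 and SLC39A13, which reside in inner membranes such as the Golgi, did not pass either, with log2 fold changes of −0.18 (FDR 0.0756) and 0.11 (FDR 0.504) in edgeR's test. For SLC39A11, all 3 resistant libraries nevertheless lay under all parental libraries, at 24.0, 20.8 and 23.5 CPM against 25.1, 26.6 and 25.6 CPM. Summed over the 14 SLC39 genes, the level was 1287 ± 14.4 CPM in parental and 1322 ± 5.87 CPM in resistant cells (SD, n = 3 each), a ratio of 1.03.

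SLC30A3 was the gene called higher. It encodes ZnT3, which loads zinc into synaptic vesicles of glutamatergic neurons. SLC30A3 (ENSG00000115194; chromosome 2, 27253684 to 27275817, reverse strand) had 2, 1 and 1 counts in parental libraries and 21, 15 and 21 counts in resistant libraries. Since every parental library was at or under the floor of 3 counts, the difference is given as a lower bound. Measured against the highest CPM that 3 counts give in a parental library, the resistant mean of SLC30A3 was at least 5.52-fold higher. The edgeR FDR of 1.69e-06 belongs to the fitted fold change, and the bound itself was not tested. SLC30A3 entered the test only through the resistant libraries, where it is high, so its call leans on the filter. The bound is for the mean and leaves out the spread of the resistant libraries, which measured 1.27, 1.02 and 1.29 CPM. In absolute terms the level of SLC30A3 in the resistant subline was low, at 1.19 ± 0.15 CPM (SD, n = 3). The overlapping gene DNAJC5G on the opposite strand had 0, 2 and 2 counts in parental and 4, 4 and 1 counts in resistant libraries.

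**Figure D3:**
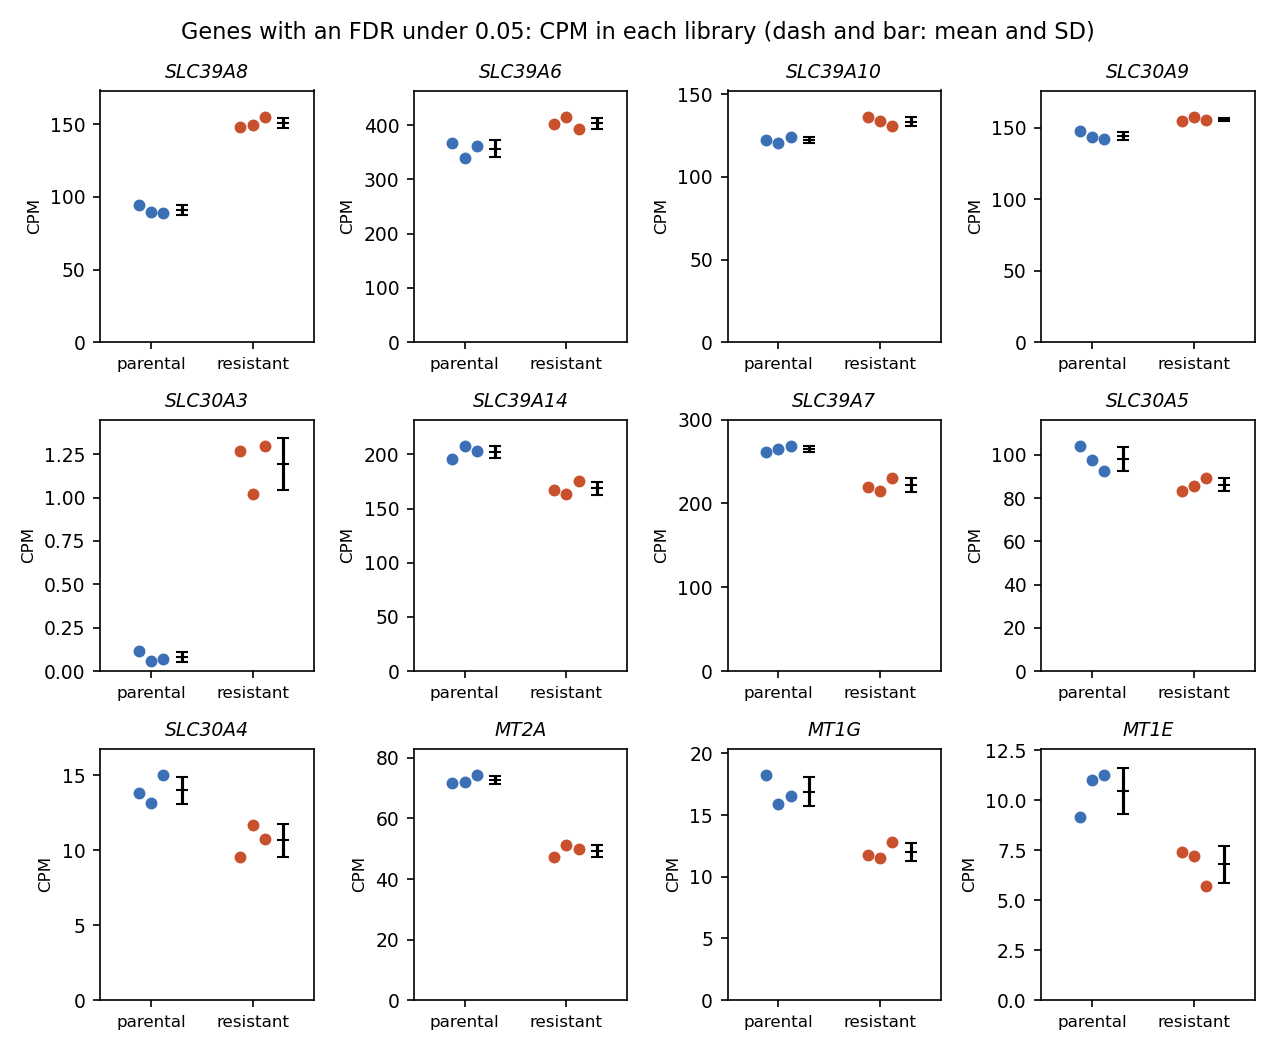
CPM (y axis, from 0) in each library for the 12 genes with an FDR under 0.05, parental in blue and resistant in red, with the mean and SD of each group in black. In all 12 panels the 3 resistant libraries lie entirely above or entirely under the 3 parental libraries (background over all tested genes, 22.1% above and 22.8% under). The 12 genes were chosen by a test on these same libraries, so this separation adds no further evidence. SLC30A3 reaches at most 1.29 CPM.

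SLC30A1, the exporter of the plasma membrane and a target of MTF1, measured 54.6, 55.3 and 51.2 CPM in parental and 56.9, 55.0 and 56.3 CPM in resistant libraries. The groups overlapped, and the log2 fold change was 0.061 (SE 0.054, edgeR FDR 0.417). The 95% confidence interval of −0.049 to 0.17 does not include a fall of the size seen for MT2A.

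SLC30A5 and SLC30A6 form a pair that loads zinc into enzymes of the early secretory pathway, and SLC30A7 serves the same compartment. SLC30A5 fell from 104, 97.8 and 92.5 CPM in parental to 83.4, 85.8 and 89.3 CPM in resistant libraries. Its log2 fold change was −0.19 (SE 0.045, edgeR FDR 8.94e-04), and the groups lay close to each other without overlapping. Its partner SLC30A6 had a log2 fold change of −0.017 (interval −0.13 to 0.095). The ratio of SLC30A5 to SLC30A6 counts overlapped between the groups, at 1.76 ± 0.13 in parental and 1.57 ± 0.14 in resistant libraries (SD, n = 3 each; two-sided exact permutation test, p = 0.2, adjusted p = 0.28). With 3 against 3 libraries this test cannot reach 0.05, so it says nothing on whether the partners changed relative to each other. SLC30A7 did not pass (log2 fold change −0.10, edgeR FDR 0.279).

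SLC30A4 encodes ZnT4, which moves zinc into endosomes and secretory vesicles. It measured 13.8, 13.2 and 14.98 CPM in parental and 9.53, 11.7 and 10.7 CPM in resistant libraries. It fell with groups that did not overlap, and its log2 fold change of −0.39 (SE 0.11, edgeR FDR 0.00407) was the lowest among the tested transporters of either family. SLC30A9, linked with the export of zinc from mitochondria, measured 148, 144 and 142 CPM in parental and 155, 157 and 155 CPM in resistant libraries. Its log2 fold change was 0.11 (SE 0.035, edgeR FDR 0.0151), and the FDR rose to between 0.0528 and 0.0557 without parental library 2 or 3 or resistant library 2.

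SLC30A10, an exporter of manganese, had at most 27 counts in any library and a log2 fold change of 0.17 (interval −0.503 to 0.84). SLC30A2, known from milk secretion, had 18, 8 and 6 counts in parental and 7, 3 and 12 in resistant libraries and was not tested. SLC30A8, the transporter of insulin granules, had at most 3 counts in any library. Summed over the 10 SLC30 genes, the level was 408 ± 12.2 CPM in parental and 404 ± 4.48 CPM in resistant cells (SD, n = 3 each), a ratio of 0.990.

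Metallothionein mRNA was lower in the resistant subline. Summed over the 11 genes it measured 109, 110 and 112 CPM in parental and 74.5, 78.5 and 77.8 CPM in resistant libraries, a ratio of group means of 0.697. MT2A (ENSG00000125148), the major isoform, made up 65.7% to 66.0% of metallothionein counts in parental and 63.2% to 65.2% in resistant libraries. All metallothionein genes lie in 1 cluster of 119 kb on chromosome 16 of hg38, from 56565049 to 56684196.

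MT2A (forward strand, 56608199 to 56609497) measured 71.8, 72.0 and 74.2 CPM in parental and 47.1, 51.1 and 49.8 CPM in resistant libraries. The groups were far apart relative to their spread, and the log2 fold change was −0.56 (SE 0.052, edgeR FDR 8.06e-12). MT1G (ENSG00000125144; reverse strand, 56666731 to 56668065) measured 18.2, 15.9 and 16.6 CPM in parental and 11.8, 11.5 and 12.8 CPM in resistant libraries. Its log2 fold change was −0.49 (SE 0.0999, FDR 1.14e-04). MT1E (ENSG00000169715; forward strand, 56625475 to 56627112) measured 9.17, 11.02 and 11.2 CPM in parental and 7.42, 7.21 and 5.73 CPM in resistant libraries, with a log2 fold change of −0.62 (SE 0.13, FDR 2.27e-04). All 3 fell, and in none of them did the groups overlap.

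MT1F had 62, 65 and 37 counts in parental and 43, 30 and 43 counts in resistant libraries. On the CPM scale the groups just missed each other, with 2.67 CPM in the lowest parental and 2.65 CPM in the highest resistant library, and the log2 fold change of −0.48 did not pass (interval −0.94 to −0.026 before adjustment, edgeR FDR 0.0943). Without parental library 3 the log2 fold change was −0.61 and the edgeR FDR 0.0455. In the other fits that each omitted 1 library, the log2 fold change of MT1F lay between −0.55 and −0.37. It did not pass in those fits, with an edgeR FDR of 0.102 to 0.287. MT1X had 88, 103 and 98 counts in parental and 82, 85 and 100 counts in resistant libraries. Its groups overlapped, with a log2 fold change of −0.11 (interval −0.44 to 0.22, FDR 0.654). Another gene model on its strand, AC026461.1, covers 1727 of the 1773 bases of MT1X and has 0 counts in every library. How many reads of MT1X went unassigned because of it was not tested.

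The ratio of MT1X to MT2A counts was 0.0711, 0.0852 and 0.0951 in parental and 0.105, 0.113 and 0.124 in resistant libraries, so the ratio was larger in each resistant library than in any parental library (two-sided exact permutation test, p = 0.1, adjusted p = 0.175). The ratios of MT1G and of MT1E to MT2A overlapped between the groups. Metallothionein paralogs have very similar coding sequences, and the sources used here do not state how reads that match several of them were counted, so the split of counts among them is uncertain.

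The remaining metallothioneins had few or 0 counts. MT3, known from the brain, had 17, 6 and 5 counts in parental and 9, 5 and 7 counts in resistant libraries. It lay above the floor of 3 counts in every library but did not pass the filter on low counts and was not tested. MT1H had at most 5 counts, MT1M at most 3 and MT1A at most 1 in any library, whereas MT1B and MT4 had 0 in all 6. At this depth a count of 0 allows up to 3 counts per library.

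MTF1 (ENSG00000188786; chromosome 1, 37809567 to 37859620) measured 33.9, 29.2 and 30.4 CPM in parental and 29.3, 32.5 and 29.0 CPM in resistant libraries. The groups overlapped, and the log2 fold change was −0.046 (SE 0.073, interval −0.19 to 0.10, edgeR FDR 0.681). The mRNA of a factor does not measure its activity.

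SLC30A1 and MT2A are both known targets of MTF1. The ratio of MT2A to SLC30A1 counts was 1.32, 1.30 and 1.45 in parental and 0.828, 0.930 and 0.884 in resistant libraries. The groups did not overlap, and the mean ratio went from 1.36 ± 0.081 to 0.881 ± 0.051 (SD, n = 3 each; two-sided exact permutation test, p = 0.1, adjusted p = 0.175). The plot of count ratios shows all 7 ratios, and the groups overlapped in 3 of them.

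**Figure D4:**
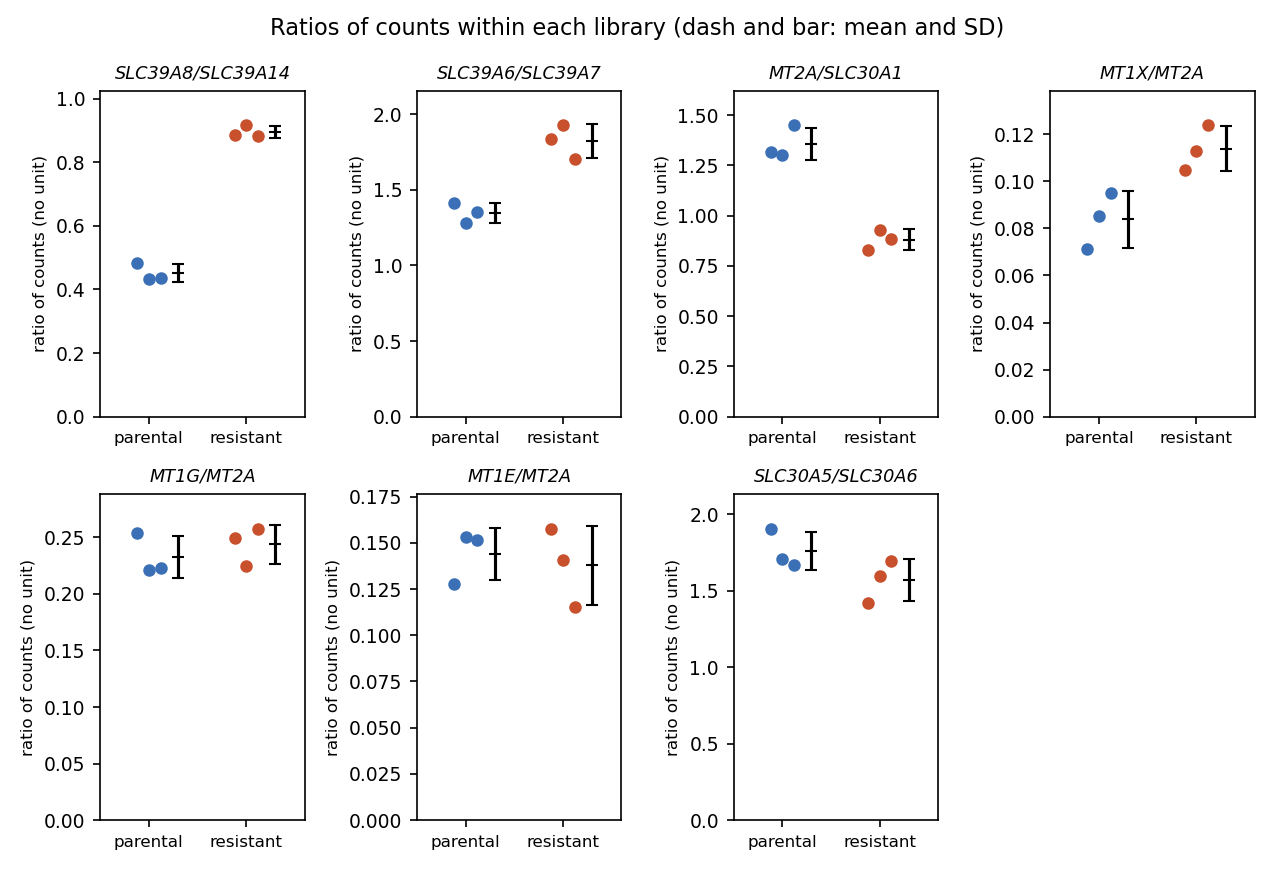
Ratios of counts of 2 genes within a library (y axis, no unit, from 0) for all 7 pairs, with 1 point per library and the mean and SD of each group in black. Parental (blue) and resistant (red) libraries do not overlap in the 4 pairs of the upper row and overlap in the 3 pairs of the lower row. The pairs were chosen after the values of the genes were seen, so this separation adds no further evidence. The ratio of SLC39A8 to SLC39A14 goes from 0.431 to 0.484 in parental to 0.883 to 0.916 in resistant libraries.

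Within the cluster 1 further gene was tested, the pseudogene MT1L, which is not protein-coding and was singled out after its values were seen. It had 32, 19 and 19 counts in parental and 7, 7 and 3 counts in resistant libraries, and it was called lower (log2 fold change −2.001, SE 0.43, edgeR FDR 2.33e-04). Its reads can be shared with the near-identical metallothionein genes, so this value is uncertain too.

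Within 500 kb on either side of the cluster, 11 further genes were tested. The median log2 fold change of these 11 genes was −0.15, beside 0.0038 over all genes tested. Of the 11 genes, 10 lay under 0 and 1 above. The FDR threshold was passed by 6 of the genes that were lower (background over all tested genes, 18.4% lower). AC012181.2 lies inside HERPUD1 and AC009090.6 inside FAM192A, so the 11 genes are not all separate loci. CPNE2 (−0.76) and GNAO1 (−1.005) lay as far from 0 as the metallothioneins or farther. GNAO1 rested on few counts, 39, 46 and 46 in parental and 25, 19 and 21 in resistant libraries. BBS2 (−0.15) and NUP93 (−0.20), which flank the cluster among the tested genes, lay closer to 0 than MT2A, MT1E, MT1F and MT1G. Lower values were therefore not particular to the metallothioneins in this window.

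**Figure D5:**
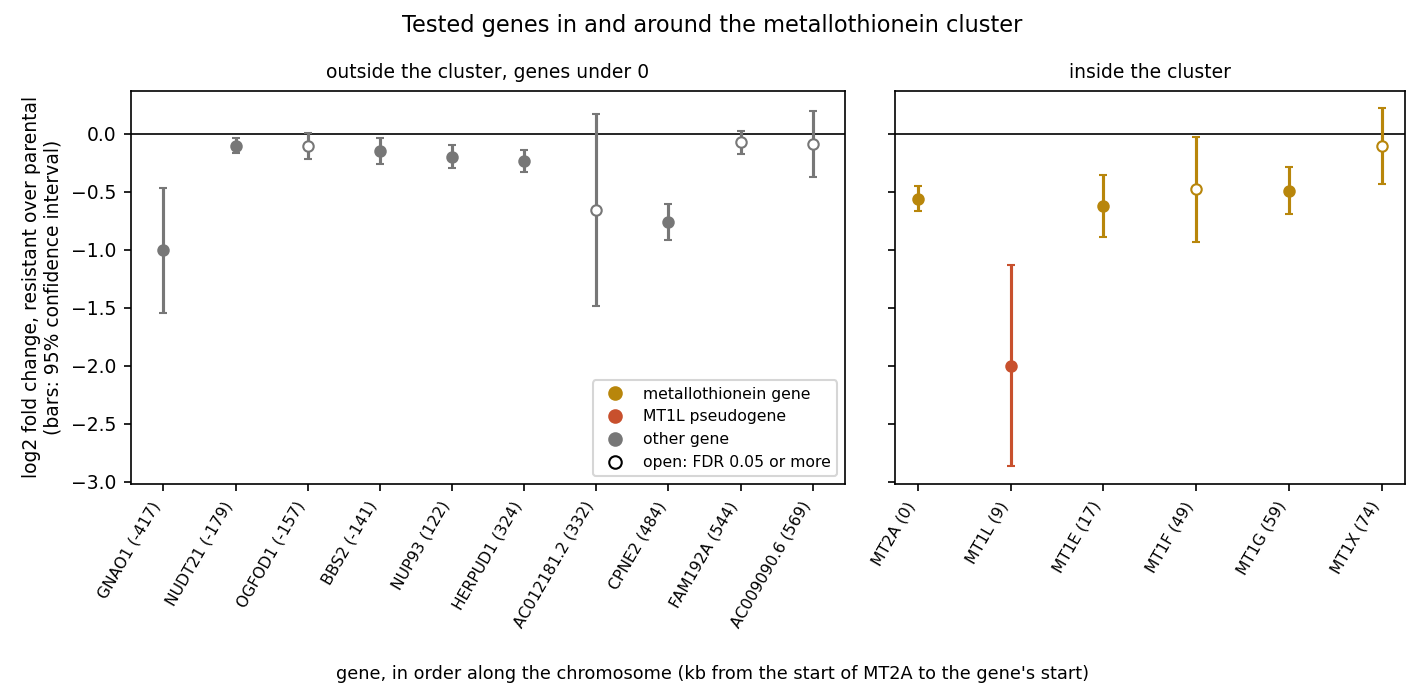
Log2 fold change (y axis, resistant over parental, with 95% confidence intervals as bars) of the 10 tested genes outside the metallothionein cluster that lay under 0 (left) and of all tested genes inside it (right), in order along chromosome 16 with the distance of each start from the start of MT2A in kb. Filled circles passed an FDR of 0.05; the nearest tested genes on each side, BBS2 and NUP93, lie at −0.15 and −0.20, whereas MT2A lies at −0.56.

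Genes that handle zinc outside the families, copper and iron gave the wider setting. In the 3 lists 0 genes were called with edgeR, and 0 passed the same fold change at an unadjusted p under 0.05. Limma-voom, limma-trend and DESeq2 also called 0. Of 8 tested zinc genes outside the families, 2 rose and 0 fell at an FDR under 0.05 (background over all tested genes, 17.1% higher and 18.4% lower), with a median log2 fold change of 0.12. CBWD1, of a family of zinc chaperones, had a log2 fold change of 0.56 (SE 0.051, FDR 5.56e-12) and MCOLN1, a lysosomal cation channel, 0.35 (SE 0.072, FDR 1.17e-04) in edgeR's test. CBWD1 has near-identical copies such as CBWD2, which had a log2 fold change of 0.078 (FDR 0.398), so the split between them is uncertain.

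Of 14 tested copper genes, 3 rose and 1 fell (same backgrounds, 35.5% in either direction), with a median log2 fold change of 0.097. The largest differences, of CP (−0.84, FDR 0.198) and SLC31A2 (−0.36, FDR 0.532), rested on few counts and did not pass edgeR's test. The genes that passed, named after their values were seen, were the copper chaperones ATOX1 (0.30) and COX17 (0.21) together with CUTC (0.23), which rose, and the copper importer SLC31A1, which fell (−0.21).

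Of 15 tested iron genes, 5 rose and 4 fell (background, 35.5% in either direction), with a median log2 fold change of −0.0040. SLC11A2, the importer DMT1, fell from 114 ± 2.36 to 87.4 ± 0.91 CPM (SD, n = 3 each), with a log2 fold change of −0.39 (SE 0.041, edgeR FDR 1.87e-10). NCOA4, the receptor that delivers ferritin to lysosomes, rose from 203 ± 3.81 to 253 ± 4.95 CPM (SD, n = 3 each; log2 fold change 0.32, edgeR FDR 5.29e-11). The other genes that passed were named after their values were seen. The transferrin receptor TFRC (−0.32), FLVCR1 (−0.20) and PCBP1 (−0.093) fell. The ferritin chains FTH1 and FTL (0.25 and 0.18), BDH2 (0.30) and ACO1 (0.185) rose.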

How the data were processed

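RNA-Seq counts of 3 parental and 3 resistant 22Rv1 libraries were analyzed. The authors mapped reads to hg38 with HISAT2 (version 2.0.5), counted them per gene with featureCounts (version 1.5.0-p3) and deposited raw counts. Gene lengths in bases, another quantity deposited by the authors in the table, were used for FPKM. The annotation release, the strand setting and the treatment of reads matching several genes are not given in the sources used here. Columns of per-sample values left unused: 0. The columns named for the parental line were taken as the vehicle libraries of the same number.

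Genes were filtered with filterByExpr, scaled with TMM and tested with edgeR 4.0.16 in R 4.3.3 (glmQLFTest, Benjamini-Hochberg over 17142 genes). The standard error is the log2 fold change divided by the root of F. Total counts per library were 13821639 to 17251491. Replicate libraries differed by more than sampling noise (chi-square per degree of freedom 1.77 to 2.46). Alternatives were 12 other settings, among them limma-voom (limma 3.58.1), DESeq2 1.42.0 and the replicate number as a block, plus 6 fits that each left out 1 library. The code was tested on simulated data.

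The members and gene lists were chosen with earlier results of these data known. All members could be named, and from each list the genes called and the 2 with the largest absolute log2 fold change, with the exceptions marked. No human sequence was used here. The values of 1 neighbor of the metallothionein cluster are not reported here.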

Additional observations from a re-analysis of the deposited data

How the results depend on the processing

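Of 466 log2 fold changes computed for the 26 tested genes under the alternatives, 441 kept their direction and their side of an FDR of 0.05. With at least 10 counts in every library, 0 genes of the group were called higher instead of 1, since SLC30A3 had too few parental counts to enter the fit. With edgeR's glmTreat, which tests against a change of 1 on the log2 scale, 1 of the 26 genes passed instead of 12. That gene was SLC30A3. Of the list genes, 0 passed with glmTreat instead of 15. At an FDR under 0.05, 12 list genes passed with DESeq2, 15 with limma-voom and 15 with limma-trend. At an unadjusted p under 0.05 the numbers were 0 with glmTreat, 15 with DESeq2, 17 with limma-voom and 18 with limma-trend. The ratio of summed metallothionein levels, 0.697, was 0.733 without MT2A. The numbers over all genes, 434 higher and 487 lower, were 248 and 287 with at least 10 counts in every library and 178 and 144 with glmTreat.

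Directions turned for genes that did not pass in any case. SLC39A5 had a log2 fold change of 0.034 with limma-voom. Over the 6 fits that each omitted 1 library, log2 fold changes ranged from −0.64 to 0.62 for SLC39A5, −0.064 to 0.015 for SLC30A6, −0.0012 to 0.071 for SLC39A4, −0.097 to 0.022 for MTF1, −0.22 to 0.0027 for MT1X and −0.059 to 0.31 for SLC30A10. The cause of these turns was not tested.

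Parental and resistant libraries with the same number did not deviate together (Pearson's r across genes, −0.0196 to −0.0081). For libraries with different numbers Pearson's r was −0.0011 to 0.017. No sign of a pairing by number was seen, but deviations from means of 3 libraries cannot exclude it. With the replicate block, 1 gene of the group was called higher, 0 were called lower and 12 passed the FDR threshold, as without it.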
